A study of Mus musculus with 8 samples.

Results

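The 8 genes Bcl2, Bcl2l1, Bcl2l2, Mcl1, Birc2, Birc3, Xiap and Cflar encode proteins that hold back cell death, and they were listed by symbol from the 30406 genes listed in all 8 libraries of the series. Their mRNA was followed in islets of male C57BL/6 mice (C57BL6/J in the study's methods) aged 12 to 16 weeks, for which no mutant or transgenic allele was named. Islets of 10 mice were pooled for each of 2 experimental replicates, and each pool was divided over 4 conditions that lasted 18 h. Islets were left untreated, were exposed to IL-1β at 10 U/mL plus IFN-γ at 150 U/mL (called cytokines below), were given the same cytokines with 2 mM NMMA, an inhibitor of nitric oxide synthases, or were given 2 mM NMMA alone. Islets were dispersed after treatment, and droplet-based single-cell RNA sequencing (scRNA-seq) of 3′ ends gave 1 library per condition and replicate. The comparison of cytokines with untreated islets asks how these genes respond to the cytokines, and the comparison of cytokines with and without NMMA asks which responses differ when nitric oxide synthesis is inhibited.

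Proteins of the Bcl-2 family decide whether the outer mitochondrial membrane is opened during intrinsic apoptosis. The anti-apoptotic members Bcl-2 (Bcl2), Bcl-xL (Bcl2l1), Bcl-w (Bcl2l2) and Mcl-1 (Mcl1) bind the BH3-only proteins and the effectors Bax and Bak and keep them inactive. Of the inhibitor of apoptosis proteins, XIAP (Xiap) binds and inhibits caspases directly, while cIAP1 (Birc2) and cIAP2 (Birc3) are ubiquitin ligases that act in TNF receptor complexes and in NF-κB signalling. cFLIP (Cflar) resembles caspase-8 but lacks its protease activity, and it limits caspase-8 activation at death receptors. IL-1β activates NF-κB in islet cells and IFN-γ acts through JAK kinases, and the inducible nitric oxide synthase gene Nos2 responds to both cytokines.

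The libraries held between 26549922 and 50731370 UMIs (unique molecular identifiers, each standing for 1 captured mRNA molecule). Of 17426 barcodes, 10876 were kept, between 937 and 2149 per library. The libraries of replicate 2 for untreated islets and for cytokines with NMMA stood apart, with a median of 3983 and 6246 UMIs per kept barcode against 14150 to 24136 in the other 6, while their β-cells had medians of 25317 and 25886 UMIs. Cell classes were rebuilt from marker genes and are named for short after the cells they resemble. They comprised 6331 β-cells (58.2% of kept barcodes), 649 α-cells (5.97%), 335 δ-cells (3.08%), 324 macrophages (2.98%) and 371 endothelial cells (3.41%). Their defining genes fitted the names, with Ins2 at 255400 to 301800 CPM (UMIs of a gene per 1000000 UMIs of the cells of a class in a library) in β-cells and at most 41660 in any other of these classes, Gcg at 82870 to 212300 in α-cells, Sst at 23840 to 90640 in δ-cells and at most 2129 elsewhere, C1qa at 2764 to 5022 in macrophages and Pecam1 at 567 to 1147 in endothelial cells. Raw UMIs were summed per library and class, which gave 39 sums of 219816 to 35151384 UMIs. The δ-cells of cytokines replicate 1 numbered 8 and were not used, so every value for δ-cells under cytokines rests on 1 library of 12 cells, and tests of it assume that this library varies like those of the other conditions. Across libraries, 14 barcodes (0.129%) occurred more than once.

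With and without cytokines, most cells of each class fell into different clusters. Among α-cells, a cluster led by Ttr and Gcg held 96.1% of the cells from islets without cytokines and a cluster led by Hamp and Fgb held 95.2% of those with cytokines. Likewise 98.6% of δ-cells without cytokines lay in a cluster led by Sst and Pyy and 90.7% of those with cytokines in a cluster led by Csf3 and Sst, and 98.9% of macrophages without cytokines lay in a cluster led by Lyz2 and Apoe against 73.8% of those with cytokines in a cluster led by C1qb and H2-Ab1. Endothelial cells without cytokines were mainly in a cluster led by Esm1 (79.2%) and those with cytokines in a cluster led by Timp3 (69.4%), while 88 endothelial cells from all conditions lay in a low-UMI cluster. In β-cells the clusters led by Ppp1r1a (62.8% of cells without cytokines) and Glp1r (27.0%) and those led by Il4i1 (42.0% of cells with cytokines), Cfb (27.6%) and Lcn2 (18.0%) each came almost wholly from 1 replicate. Levels of genes listed as markers of other classes moved with the conditions, in the small classes and in β-cells. The 9 β-cell markers summed to 10650 and 8413 CPM in untreated α-cells, 53320 and 52350 under cytokines, 26840 and 66820 under cytokines with NMMA and 25090 and 11440 under NMMA, led by Ins2 in each library. In macrophages the same markers ran the other way, from 18540 and 43560 CPM in untreated islets to 2280 and 6747 under cytokines, where 6 of the 9 were at 0 in each library. The 9 macrophage markers reached 1209 CPM in the endothelial cells of cytokines with NMMA replicate 1, led by C1qa at 384 CPM, against 3.23 to 15.5 CPM in the other 7 libraries. In β-cells they summed to 72.2 and 47.9 CPM untreated, 125 and 69.9 CPM under cytokines, 190.5 and 93.6 CPM under cytokines with NMMA and 45.8 and 38.3 CPM under NMMA, lowest in replicate 2 each time. These β-cell sums were mainly C1qa (25.05 to 165.6 CPM) and Cd68 (2.33 to 25.95 CPM). C1qb, at 3264 to 6598 CPM in macrophages, was at 0.199 to 0.477 CPM in β-cells, and no other of the 9 exceeded 2.30 CPM there. Whether this C1qa signal came from macrophages was not tested. In β-cells of replicate 1, the 2 PP-cell markers summed to 1475 CPM untreated, 514 under cytokines, 377.5 under cytokines with NMMA and 1571 under NMMA. In the same order, the 5 ductal markers there summed to 395, 856, 699 and 427 CPM and the 7 α-cell markers to 499, 262, 394 and 382 CPM. δ-cells held Gcg at 5412 to 45900 CPM over 7 libraries, against at most 3794 CPM in β-cells, macrophages and endothelial cells. Their 7 α-cell markers, led by Gcg, summed to 9698 and 34870 CPM untreated, 32820 CPM in the 1 cytokine library, 5680 and 14950 CPM under cytokines with NMMA and 13210 and 47700 CPM under NMMA. The 2 markers of PP-cells, led by Pyy, summed in δ-cells to 97400 and 127700 CPM untreated, 23580 CPM under cytokines, 46190 and 60260 CPM under cytokines with NMMA and 95710 and 89120 CPM under NMMA, lower with cytokines than without. Ins2 ran from 6402 to 17650 CPM over the δ-cell libraries, highest in the 1 cytokine library. In endothelial cells it ran from 2074 to 19330 CPM, highest in NMMA replicate 2. The part of these marker levels in the results below was not tested.

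All 8 genes are protein coding and lie, in the GRCm38 build used for counting (GENCODE M21 annotation), on chromosomes 1, 2, 3, 9, 14 and X. Birc2 (chr9:7818227-7837064) and Birc3 (chr9:7848699-7873186) are neighbours on the minus strand, 11634 bases apart, and their transcripts share 65 stretches of 50 bases. Transcripts of Birc3 and Cflar share 6 such stretches, and no other pair of the 8 shares any. Bcl2l1 lies at chr2:152780668-152831728 on the minus strand, Mcl1 at chr3:95658788-95663176, Xiap at chrX:42059679-42109656 and Cflar at chr1:58711508-58758884, all 3 on the plus strand. Bcl2 (chr1:106538178-106714274, minus strand) has exons that overlap D630008O14Rik on the other strand, and Bcl2l2 (chr14:54883377-54888234, plus strand) has exons that overlap Gm20521 on the same strand, so that its counts are uncertain where reads fit both. The promoter windows of Birc3, Bcl2l1 and Cflar are shown because these genes carry the main differences described below and because IL-1β and IFN-γ act through factors that bind short motifs of the kinds searched. Each runs 5′ to 3′ from 250 bases before to 30 bases after a transcript start (RefSeq, GRCm38.p6), and capitals mark matches on either strand to GGGNNNNNCC (an NF-κB-type motif) or GAAANNGAAA (an interferon-response-type motif).
Birc3 promoter, chr9:7873141-7873420, minus strand: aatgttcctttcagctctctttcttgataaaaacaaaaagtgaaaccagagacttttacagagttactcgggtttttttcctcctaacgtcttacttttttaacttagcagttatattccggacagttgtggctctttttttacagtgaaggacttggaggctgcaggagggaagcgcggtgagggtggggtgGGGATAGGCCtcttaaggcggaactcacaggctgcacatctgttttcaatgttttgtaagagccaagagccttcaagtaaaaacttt
Bcl2l1 promoter, chr2:152830688-152830967, minus strand: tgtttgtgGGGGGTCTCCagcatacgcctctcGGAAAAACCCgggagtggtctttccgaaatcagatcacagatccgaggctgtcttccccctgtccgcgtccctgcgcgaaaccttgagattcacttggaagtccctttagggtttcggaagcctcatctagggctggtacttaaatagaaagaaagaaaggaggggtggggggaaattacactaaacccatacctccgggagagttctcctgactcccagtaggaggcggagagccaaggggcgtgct
Cflar promoter, chr1:58711241-58711520, plus strand: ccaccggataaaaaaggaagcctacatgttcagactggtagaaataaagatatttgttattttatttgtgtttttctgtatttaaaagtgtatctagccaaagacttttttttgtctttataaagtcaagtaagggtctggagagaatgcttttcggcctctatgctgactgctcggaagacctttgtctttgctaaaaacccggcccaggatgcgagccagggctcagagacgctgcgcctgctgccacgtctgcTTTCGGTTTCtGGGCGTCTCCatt
The Birc3 window holds 1 match to GGGNNNNNCC, GGGATAGGCC, which begins 57 bases before the start. The Bcl2l1 window, 1 of 3 listed for the gene and the single window of the 3 with a match, holds GGGGGTCTCC and, on the reverse strand, GGAAAAACCC, which begin 242 and 218 bases before the start. The Cflar window holds GGGCGTCTCC from 17 bases after the start and, on the reverse strand, TTTCGGTTTC from 6 bases after it. Across the 13 windows of all 8 genes, no match to TTCNNNGAA (an IFN-γ-activated-site-type motif) was found and the 2 Birc2 windows held no match to any of the 3 motifs. GGGNNNNNCC was also matched at 1 position in the Bcl2 window, at 2 in that of Bcl2l2, at 2 in that of Mcl1 and at 7 in 1 of the 3 Xiap windows, the most of any window here. Such matches are common, since 50.8% of 32851 RefSeq promoter windows of the full 300 bases hold GGGNNNNNCC, 8.30% hold TTCNNNGAA and 3.44% hold GAAANNGAAA.

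Cytokines raised 4 of these genes in β-cells and 5 in α-cells, and at most 1 in each of the other classes. A replicate block gave 5 in β-cells (Xiap added), 3 in macrophages (Birc3 and Cflar added) and 1 in endothelial cells (Cflar). With that block 4112 of all 12771 genes tested were called higher in β-cells, 314 of 5156 in macrophages and 531 of 7551 in endothelial cells. In β-cells, 4 of the 8 rose (Birc3, Bcl2l1, Mcl1 and Birc2), Bcl2l2 fell, and 3 did not pass the test, where 46.2% of all 12771 genes tested were called (23.8% higher and 22.4% lower). The median log2 change of the 8 was 0.44 against 0.00 for all genes tested. In α-cells 5 of the 8 rose (Birc3, Bcl2l1, Mcl1, Birc2 and Cflar) and none fell, against 23.4% of 9714 genes called (13.8% higher and 9.61% lower), with a median of 0.80 against -0.03. In δ-cells Birc3 was called higher from 1 cytokine library, whose spread was taken from the other conditions (6.18% of 9503 genes called, 4.57% higher and 1.61% lower), in macrophages Mcl1 was called higher of the 5 genes that passed the filter on low counts (4.62% of 5156 genes called, 3.82% higher and 0.795% lower), and in endothelial cells none of the 8 was called (6.00% of 7551 genes called, 4.45% higher and 1.55% lower), although Cflar had an unadjusted p under 0.05 there. DESeq2 called none of the 8 in endothelial cells or macrophages under cytokines. A gene was called at an adjusted p under 0.05 from edgeR's quasi-likelihood test, with Benjamini-Hochberg adjustment over all genes tested in a class, and 2 libraries per condition limit every test. Scaling by total UMIs instead of TMM moved the median of all genes under cytokines to -0.22 in β-cells and -0.51 in α-cells on the log2 scale. Under it the α-cell changes of Mcl1 (0.42), Birc2 (0.31) and Cflar (0.29) were no longer called.

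With NMMA added to the cytokines, 6 of the 8 genes were called higher than in untreated β-cells and none lower, against 22.6% of all genes called (12.9% higher and 9.74% lower). The 2 that were not called were Bcl2 and Bcl2l2. In α-cells 4 were higher, where 8.58% of all genes were called (6.25% higher and 2.33% lower). Birc3 and Bcl2l1 were higher in δ-cells, where 8.98% of all genes were called (6.31% higher and 2.66% lower). In macrophages 3 of the 5 genes tested were higher, Mcl1, Birc3 and Cflar (6.46% of all genes called, 5.16% higher and 1.30% lower), and in endothelial cells Cflar was (6.45% called, 4.99% higher and 1.46% lower). Set directly against cytokines with NMMA, cytokines alone gave lower Cflar and Bcl2l2 in β-cells, 2 of 8 where 19.4% of all genes were called (8.98% higher and 10.4% lower). With the replicate as a block edgeR called Birc3 lower as well in this comparison (adjusted p = 0.00025), where it called 5197 of 12771 genes. No gene of the 8 was called in that comparison in α-cells (11.8% of genes called, 6.09% higher and 5.66% lower), δ-cells (2.26%), macrophages (0.116%, all lower) or endothelial cells (0%, with 356 genes at an unadjusted p under 0.05 and 3 called by DESeq2), by edgeR or by DESeq2. With scaling by total UMIs edgeR called Bcl2 (log2 -1.03, adjusted p = 0.0488) and Birc3 (log2 -0.94, adjusted p = 0.0183) lower in α-cells, where that scaling moved the median of all genes to -0.40. Among the calls not made, Birc3 in δ-cells had an unadjusted p under 0.05. The comparisons with untreated cells share their untreated libraries, and both comparisons of cytokines share the cytokine libraries, so their values are given side by side.

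**Figure D1:**
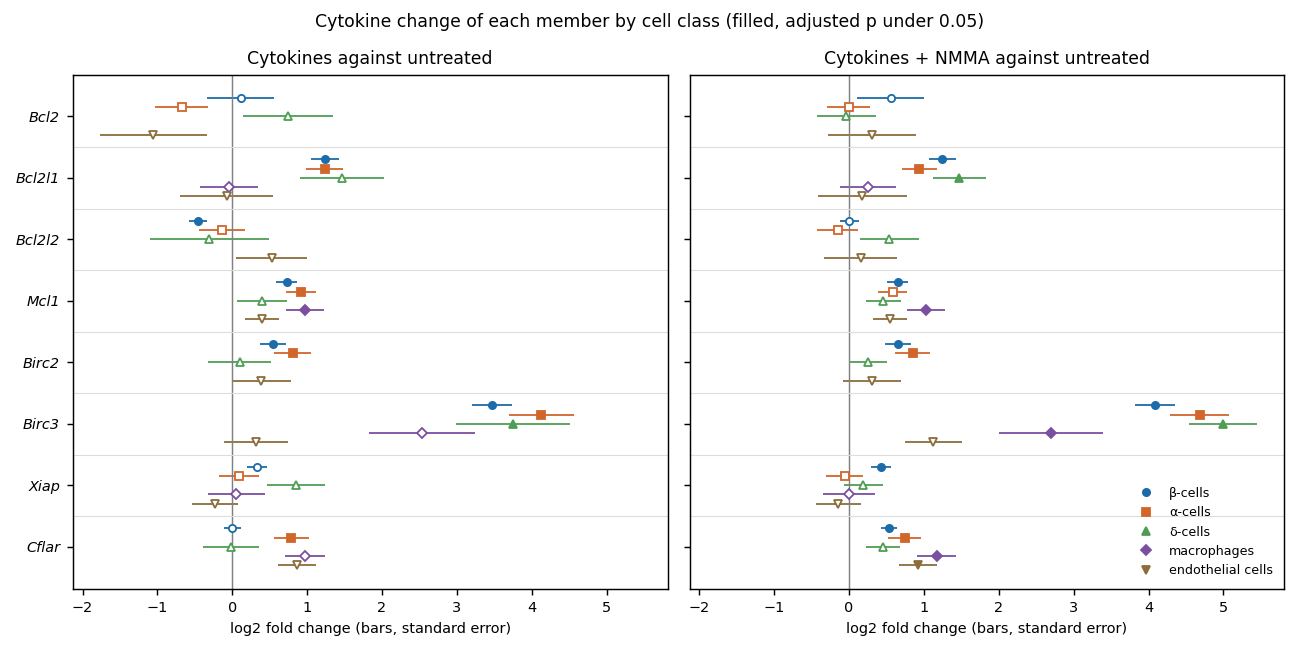
Log2 fold change (x axis) of each of the 8 genes (y axis) in 5 cell classes, for cytokines against untreated (left) and cytokines with NMMA against untreated (right); symbols stand for the classes, bars are standard errors of the edgeR fit, and filled symbols have an adjusted p under 0.05. Birc3 lies farthest to the right in β-, α- and δ-cells (3.47, 4.13 and 3.75 on the left), δ-cells under cytokines rest on 1 library, and Bcl2, Bcl2l2 and Birc2 have no symbol for macrophages because they did not pass the filter on low counts.

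Bcl2l1, whose product Bcl-xL guards the mitochondrial membrane, rose in β-cells with and without NMMA. It stood at 14.1 and 16.4 CPM (replicates 1 and 2, here and below scaled by the TMM method) in untreated β-cells, 37.9 and 33.6 CPM under cytokines, 37.0 and 35.0 CPM under cytokines with NMMA and 17.1 and 24.9 CPM under NMMA. All 4 cytokine-treated libraries lay above all 4 others. The change under cytokines was 2.36-fold (log2 1.24, SE 0.18, adjusted p = 0.000702), and with NMMA added it was 2.38-fold (log2 1.25, adjusted p = 0.00125). Cytokines with and without NMMA differed by -0.01 on the log2 scale (95% interval -0.41 to 0.39). Leaving out any 1 library kept both calls against untreated cells.

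In α-cells Bcl2l1 was at 35.2 and 34.9 CPM in untreated islets, 101 and 67.1 CPM under cytokines, 73.1 and 61.5 CPM under cytokines with NMMA and 34.8 and 33.1 CPM under NMMA, again with no overlap between libraries with and without cytokines. The rise was 2.35-fold under cytokines (log2 1.23, SE 0.25, adjusted p = 0.00132) and 1.92-fold with NMMA (log2 0.94, SE 0.23, adjusted p = 0.0138). The second of these calls was lost without cytokines with NMMA replicate 1 or without either untreated library (log2 0.81 to 0.95, adjusted p = 0.0962 to 0.127) and in DESeq2. In δ-cells Bcl2l1 went from 21.4 and 18.1 CPM untreated to 50.8 and 61.6 CPM under cytokines with NMMA (log2 1.47, SE 0.36, adjusted p = 0.00922) and stood at 55.7 CPM in the single cytokine library (adjusted p = 0.141). That call in δ-cells was lost without cytokines with NMMA replicate 2 or without either untreated library (adjusted p = 0.0888 to 0.0994), and DESeq2 did not make it. Macrophages and endothelial cells showed no such shift, with Bcl2l1 at 41.6 and 41.1 CPM in untreated macrophages against 47.3 and 31.9 CPM under cytokines (log2 -0.04, 95% interval -0.87 to 0.79), and at 11.4 and 31.5 against 19.2 and 22.7 CPM in endothelial cells, where the sums held 4 to 23 UMIs of the gene.

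Mcl1, which encodes a short-lived member of the family, rose in β-cells, α-cells and macrophages. In β-cells it was at 39.5 and 49.1 CPM untreated, 75.3 and 70.9 CPM under cytokines, 65.4 and 73.5 CPM under cytokines with NMMA and 46.9 and 50.7 CPM under NMMA. Libraries with cytokines lay above those without, by 1.65-fold for cytokines (log2 0.72, SE 0.14, adjusted p = 0.00309) and 1.57-fold for cytokines with NMMA (log2 0.65, SE 0.14, adjusted p = 0.0103). The first call held without any 1 library, and the second was lost without cytokines with NMMA replicate 2 or untreated replicate 1 (adjusted p = 0.0634 to 0.104). In α-cells Mcl1 was at 67.6 and 75.2 CPM untreated, 140 and 131 CPM under cytokines, 101 and 113 CPM under cytokines with NMMA and 82.2 and 75.6 CPM under NMMA. The cytokine libraries were the highest, 1.89-fold over untreated (log2 0.92, SE 0.20, adjusted p = 0.00253), a call kept without any 1 library. With NMMA added the adjusted p was 0.0721 (log2 0.58), and with the replicate as a block it was 0.0181.

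Macrophages had Mcl1 at 238 and 265 CPM untreated, 568 and 423 CPM under cytokines, 586 and 445 CPM under cytokines with NMMA and 261 and 216 CPM under NMMA. The treated libraries did not overlap the untreated ones, and the rise was 1.97-fold (log2 0.97, SE 0.25, adjusted p = 0.0385) under cytokines and 2.04-fold (log2 1.03, adjusted p = 0.0219) with NMMA. Both calls are fragile, since each was lost without replicate 1 of its treated condition or without either untreated library (adjusted p = 0.0829 to 0.268), both were lost with scaling by total UMIs, and the first was lost in DESeq2. Endothelial cells held Mcl1 at 408 and 393 CPM untreated against 475 and 575 CPM under cytokines (log2 0.40, adjusted p = 0.422), and δ-cells at 102 and 85.4 CPM untreated against 134 and 126 CPM under cytokines with NMMA (log2 0.46, adjusted p = 0.273).

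Bcl2l2, encoding Bcl-w, was the gene of the family that fell in β-cells, and it did so without NMMA. It was at 29.2 and 26.0 CPM untreated, 19.6 and 20.7 CPM under cytokines, 27.5 and 27.9 CPM under cytokines with NMMA and 31.5 and 29.9 CPM under NMMA. Both cytokine libraries lay below all 6 others. Cytokines against untreated gave a 1.37-fold lower level (log2 -0.46, SE 0.12, adjusted p = 0.0132), and cytokines against cytokines with NMMA a 1.38-fold lower level (log2 -0.46, SE 0.12, adjusted p = 0.0292). The level with NMMA differed from untreated by 0.01 on the log2 scale (95% interval -0.27 to 0.28). The first call was lost without replicate 1 of either condition (log2 -0.42 to -0.37, adjusted p = 0.0659 to 0.108), the second without any of 6 libraries (both cytokine libraries, both with NMMA added, NMMA replicate 2 and untreated replicate 2, adjusted p = 0.0501 to 0.134), and DESeq2 made neither. No other class showed a called change in Bcl2l2, which was not tested in macrophages. In α-cells the gene ran from 21.2 to 34.8 CPM over all 8 libraries (cytokines against untreated, log2 -0.13), and macrophages held 3 to 14 UMIs of it per library.

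Bcl2 itself was close to absent from β-cells. It gave 8 to 20 UMIs per library there, or 0.557 and 0.788 CPM untreated, 0.575 and 0.877 CPM under cytokines, 0.801 and 1.16 CPM under cytokines with NMMA and 0.513 and 0.500 CPM under NMMA. Untreated and cytokine libraries overlapped, while both libraries of cytokines with NMMA lay just above untreated and both of NMMA lay below all 6 others. No comparison of Bcl2 in β-cells passed the test (cytokines against untreated, log2 0.11, SE 0.45, adjusted p = 0.859). The other 4 classes held more of it. In α-cells the levels were 16.5 and 20.2 CPM untreated, 12.3 and 11.04 CPM under cytokines, 18.3 and 18.6 CPM under cytokines with NMMA and 13.7 and 13.9 CPM under NMMA. Both cytokine libraries were the lowest of the 8, but the change did not pass the test (log2 -0.68, SE 0.36, adjusted p = 0.181), and with scaling by total UMIs it did (log2 -1.16, where the median of all genes was -0.51). After thinning each cell to 9000 UMIs, 13.0% (95% exact Clopper-Pearson interval 6.41 to 22.6) and 20.5% (12.4 to 30.8) of untreated α-cells had a Bcl2 UMI against 4.55% (0.555 to 15.5) and 5.17% (1.08 to 14.4) under cytokines. Without thinning these shares were 18.1%, 27.96%, 9.80% and 14.1%. In β-cells thinned to 10000 UMIs the shares were 0.506% to 0.963% over the 8 libraries, and 1.15% to 3.18% without thinning. The intervals cover counting error alone.

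**Figure D2:**
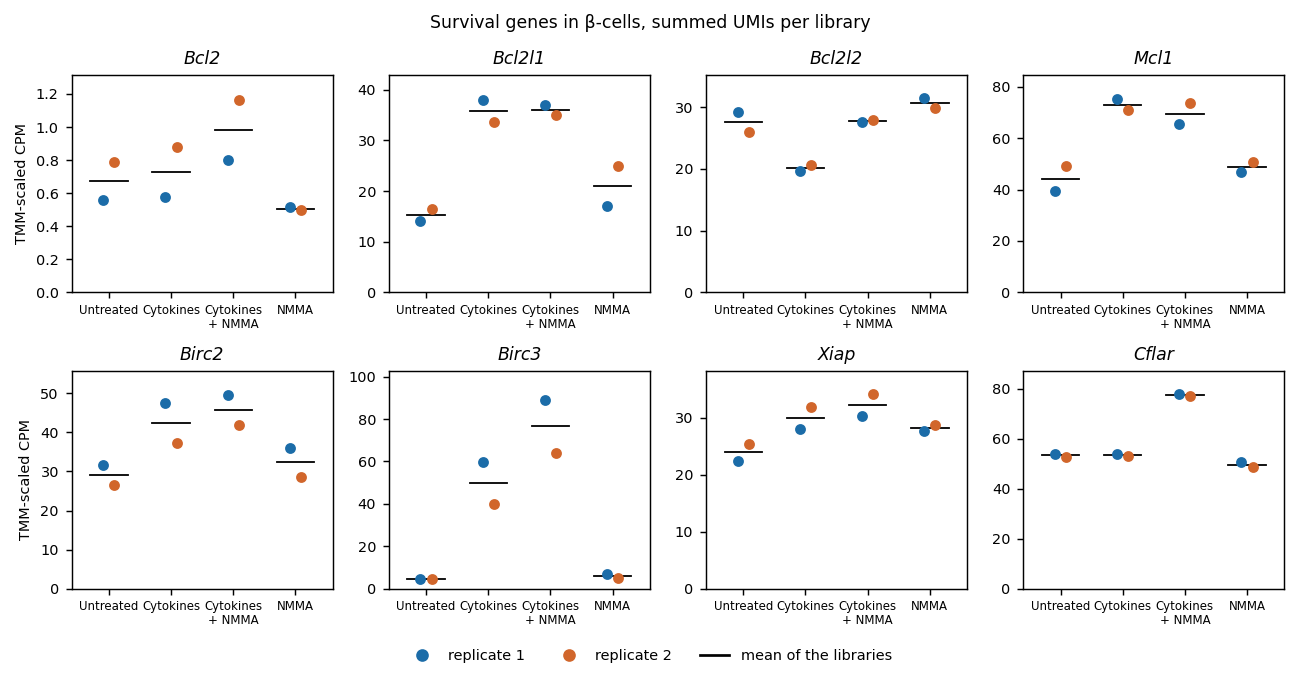
TMM-scaled CPM (y axes, each from 0) of the 8 genes in β-cells by condition (x axis); points are the 2 libraries of a condition and lines their means. Birc3 goes from under 5 CPM in untreated to 39.9 CPM or more in cytokine-treated libraries, Bcl2l2 is lowest under cytokines alone, and Cflar is at 77.1 and 77.8 CPM under cytokines with NMMA against 48.7 to 54.0 CPM in the other 6 libraries.

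Birc3, whose product cIAP2 ubiquitinates RIPK1 in TNF receptor complexes, changed most of the 8 in β-, α- and δ-cells. In β-cells it gave 158 and 77 UMIs untreated and 1563 and 591 under cytokines, or 4.40 and 4.67 CPM untreated, 60.0 and 39.9 CPM under cytokines, 89.1 and 64.2 CPM under cytokines with NMMA and 7.03 and 5.06 CPM under NMMA. The levels with cytokines did not overlap those without. Birc3 rose 11.1-fold under cytokines (log2 3.47, SE 0.26, adjusted p = 3.22e-05) and 17.0-fold with NMMA added (log2 4.08, SE 0.27, adjusted p = 2.07e-05), and leaving out any 1 library kept both calls. In each replicate the level was higher with NMMA than without, by log2 0.62 overall. That difference did not pass the test without a replicate term (cytokines minus cytokines with NMMA, log2 -0.62, SE 0.23, adjusted p = 0.0972) and passed with the replicate as a block (adjusted p = 0.00025), with scaling by total UMIs (adjusted p = 0.0246) and without the filter on low counts (adjusted p = 0.00294).

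The share of β-cells with a Birc3 UMI followed the same order. Thinned to 10000 UMIs per cell, 4.30% (3.36 to 5.42) and 4.71% (3.04 to 6.92) of untreated β-cells had one, 34.7% (31.9 to 37.6) and 26.9% (23.0 to 31.2) under cytokines, 51.5% (47.5 to 55.5) and 40.0% (34.9 to 45.3) under cytokines with NMMA and 6.42% and 6.11% under NMMA. Without thinning the shares were 8.37% and 10.7%, 57.7% and 43.8%, 75.0% and 58.5%, and 15.5% and 11.5%. Within each replicate the intervals of the 3 conditions untreated, cytokines and cytokines with NMMA did not overlap. No class here is known to lack Birc3, so no background share could be set beside these.

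In α-cells Birc3 rose from 2 and 8 UMIs (1.44 and 4.36 CPM) untreated to 50 and 46 UMIs (76.8 and 39.1 CPM) under cytokines and 149 and 155 UMIs (82.5 and 80.2 CPM) under cytokines with NMMA. Both treated conditions stood clear of untreated and of NMMA alone (6.32 and 5.30 CPM), by 17.5-fold for cytokines (log2 4.13, SE 0.43, adjusted p = 2.62e-06) and 25.7-fold with NMMA (log2 4.68, SE 0.39, adjusted p = 1.5e-07). The 2 treated conditions differed by log2 -0.55 (SE 0.28, adjusted p = 0.213), and without cytokines replicate 1, the higher of the cytokine libraries, by log2 -1.06 (adjusted p = 0.0475). In δ-cells the gene gave 5 and 0 UMIs untreated, 10 UMIs (42.8 CPM) in the 1 cytokine library, 98 and 76 UMIs (104 and 99.6 CPM) with NMMA added and 8 and 8 UMIs (14.6 and 10.9 CPM) under NMMA. Against untreated the δ-cell change was log2 3.75 (SE 0.76, adjusted p = 0.00324) for the single cytokine library, with the spread taken from the other conditions, and log2 4.996 (SE 0.46, adjusted p = 9.43e-08) with NMMA.

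Macrophages had Birc3 at 13.9 and 1.42 CPM untreated (5 and 1 UMIs), 31.5 and 40.6 CPM under cytokines, 50.03 and 32.4 CPM under cytokines with NMMA and 14.7 and 12.2 CPM under NMMA. The change under cytokines did not pass the test (log2 2.53, SE 0.71, adjusted p = 0.0562), and passed with the replicate as a block (adjusted p = 0.0237) and without the filter on low counts (adjusted p = 0.00212). It also passed without NMMA replicate 1, NMMA replicate 2 or untreated replicate 1, and its size then ran from log2 2.54 to 4.43. With NMMA added it passed (log2 2.70, SE 0.69, adjusted p = 0.0287), and it was lost without cytokines with NMMA replicate 1 or untreated replicate 2 (log2 1.52 to 2.39, adjusted p = 0.158 to 0.287) and in DESeq2. Endothelial cells already held 20.9 and 30.1 CPM untreated and had 38.4 and 28.3 CPM under cytokines, 53.2 and 59.1 CPM with NMMA and 32.7 and 25.5 CPM under NMMA. Their untreated and cytokine libraries overlapped (log2 0.32, 95% interval -0.59 to 1.23), and the libraries with NMMA lay above all others without passing the test (log2 1.12, SE 0.38, adjusted p = 0.103).

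Birc2, the neighbour of Birc3, moved far less. In β-cells it was at 31.7 and 26.4 CPM untreated, 47.6 and 37.3 CPM under cytokines, 49.5 and 41.8 CPM under cytokines with NMMA and 35.9 and 28.7 CPM under NMMA. Libraries with cytokines lay above those without, by 1.46-fold (log2 0.55, SE 0.18, adjusted p = 0.0306) and, with NMMA, 1.57-fold (log2 0.65, adjusted p = 0.027). The first call was lost without cytokines replicate 1 or either untreated library (log2 0.36 to 0.69, adjusted p = 0.0521 to 0.208) and with scaling by total UMIs (log2 0.33), and the second without cytokines with NMMA replicate 1 or either untreated library (adjusted p = 0.0653 to 0.169). In α-cells Birc2 went from 31.6 and 37.6 CPM untreated to 66.1 and 56.9 CPM under cytokines (log2 0.81, SE 0.25, adjusted p = 0.0231) and 68.1 and 57.4 CPM with NMMA (log2 0.85, adjusted p = 0.0235), with no overlap. Both α-cell calls were lost without replicate 1 of the treated condition or either untreated library (adjusted p = 0.0633 to 0.217), with scaling by total UMIs and in DESeq2. δ-cells had 57.4 and 54.2 CPM untreated and 58.3 and 76.0 CPM under cytokines with NMMA, endothelial cells ranged from 26.5 to 62.3 CPM over all conditions, and neither had a called change.

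Xiap, the direct caspase inhibitor, shifted by less than 1.5-fold in β-cells. It was at 22.4 and 25.4 CPM untreated, 28.0 and 32.0 CPM under cytokines, 30.3 and 34.2 CPM under cytokines with NMMA and 27.7 and 28.7 CPM under NMMA, so that the 2 untreated libraries were the lowest of the 8. Cytokines gave log2 0.33 (SE 0.13, adjusted p = 0.0722, or 0.00863 with a replicate block) and cytokines with NMMA log2 0.43 (SE 0.13, adjusted p = 0.0467). The latter call was lost without any 1 of the 6 libraries of untreated islets, of NMMA and of cytokines with NMMA (log2 0.34 to 0.51, adjusted p = 0.0664 to 0.266), with scaling by total UMIs, without the filter and in DESeq2. In α-cells Xiap ranged from 27.1 to 46.4 CPM and in macrophages from 33.8 to 57.9 CPM, with overlapping conditions and no call. In δ-cells the single cytokine library was the highest at 81.4 CPM against 40.8 to 53.8 CPM in the other 6, and this did not pass the test (log2 0.85, adjusted p = 0.234). Endothelial cells had 106 and 153 CPM untreated, 120 and 105 CPM under cytokines, 77.3 and 148 CPM with NMMA and 142 and 137 CPM under NMMA.

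Cflar, which encodes the caspase-8 inhibitor cFLIP, was called different between cytokines with and without NMMA in β-cells. It was at 54.0 and 52.9 CPM untreated, 53.9 and 53.2 CPM under cytokines, 77.8 and 77.1 CPM under cytokines with NMMA and 50.6 and 48.7 CPM under NMMA. Cytokines and untreated libraries overlapped (log2 0.00, 95% interval -0.25 to 0.25), while both libraries of cytokines with NMMA stood above the other 6. With NMMA added Cflar was 1.45-fold higher than untreated (log2 0.54, SE 0.11, adjusted p = 0.00767), and cytokines alone were 1.45-fold lower than cytokines with NMMA (log2 -0.53, SE 0.11, adjusted p = 0.0125). The first call was lost without cytokines with NMMA replicate 1 or either untreated library (log2 0.49 to 0.55, adjusted p = 0.0535 to 0.0664) and the second without cytokines replicate 1 or either library of cytokines with NMMA (log2 -0.54 to -0.52, adjusted p = 0.0639 to 0.0702), so the sizes moved little.

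In α-cells Cflar rose under cytokines without NMMA as well. It went from 38.8 and 47.4 CPM untreated to 84.5 and 67.1 CPM under cytokines, 65.9 and 79.1 CPM under cytokines with NMMA and 55.9 and 55.01 CPM under NMMA. Treated libraries lay above all others, by 1.73-fold (log2 0.79, SE 0.23, adjusted p = 0.0192) and 1.67-fold with NMMA (log2 0.74, SE 0.22, adjusted p = 0.041), and the treated conditions overlapped (log2 0.05, 95% interval -0.42 to 0.51). The first α-cell call was lost without cytokines replicate 1 or untreated replicate 1 (adjusted p = 0.111 to 0.148), the second without any 1 of the 6 libraries other than the cytokine libraries (adjusted p = 0.0601 to 0.312), the second was also lost with doublets removed (adjusted p = 0.0579), and DESeq2 and scaling by total UMIs (log2 0.29 and 0.62) made neither.

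Macrophages had Cflar at 58.2 and 55.3 CPM untreated, 110 and 113 CPM under cytokines, 124 and 131 CPM with NMMA and 85.0 and 91.2 CPM under NMMA, 4 conditions that did not overlap. Cytokines gave log2 0.98 (SE 0.27, adjusted p = 0.0503, or 0.0173 with a replicate block) and cytokines with NMMA log2 1.17 (SE 0.26, adjusted p = 0.0126). Endothelial cells had 121 and 149 CPM untreated, 216 and 275 CPM under cytokines, 237 and 275 CPM with NMMA and 134 and 155 CPM under NMMA, with treated libraries above the others. The endothelial change under cytokines was log2 0.86 (SE 0.25, adjusted p = 0.052, or 0.00667 with the block) and it passed with doublets removed, at the finer clustering and without the low-UMI cluster, an alternative chosen after seeing the data. With NMMA it was log2 0.92 (SE 0.25, adjusted p = 0.0317). The calls for cytokines with NMMA in both classes were lost without either untreated library or either library of cytokines with NMMA (adjusted p = 0.0568 to 0.282) and in DESeq2, and the endothelial call with scaling by total UMIs too. In δ-cells Cflar was at 75.8 and 60.8 CPM untreated, 68.5 CPM in the 1 cytokine library and 94.3 and 95.7 CPM with NMMA (log2 0.46, adjusted p = 0.268).

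NMMA alone left no gene of the 8 called in any class. Of all genes, 0% were called in each class by edgeR without a replicate term. With the replicate as a block, edgeR called 443 genes in β-cells (194 higher and 249 lower), 10 in α-cells and 1 in each of the other classes, and again none of the 8. An unadjusted p under 0.05 was found for 926 of 12771 genes in β-cells and for 131 (endothelial cells) to 358 genes (α-cells) in the other classes, and DESeq2 called 12 genes in β-cells and 0 in each other class, none of them among the 8. The 3 with an unadjusted p under 0.05 were Bcl2l1 in β-cells (log2 0.47, adjusted p = 0.632), Birc3 in δ-cells (log2 1.99, SE 0.66, adjusted p = 1) and Cflar in macrophages (log2 0.64, adjusted p = 1).

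The cytokine response of Cflar and of Birc3 differed between classes when the difference itself was tested, with both classes of each library in 1 model. For Cflar the change under cytokines exceeded that of β-cells by log2 0.86 in α-cells (SE 0.23, adjusted p = 0.0172; 4.53% of all genes differed), by log2 1.20 in macrophages (SE 0.36, adjusted p = 0.0267; 4.34%) and by log2 0.99 in endothelial cells (SE 0.29, adjusted p = 0.0167; 5.90%). In δ-cells, where 3.04% of genes differed, none of the 8 was called and the Cflar difference was log2 -0.11 (95% interval -0.92 to 0.70, 1 cytokine library). The α-cell difference was lost without cytokines replicate 1 or untreated replicate 1 (adjusted p = 0.221 to 0.286), with scaling by total UMIs and in DESeq2, the macrophage difference without any 1 of the 6 untreated and cytokine-treated libraries (0.115 to 0.430), with scaling by total UMIs and without the filter, and the endothelial difference without cytokines replicate 2 or either untreated library (0.0549 to 0.345).

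For Birc3 the change was smaller in endothelial cells than in β-cells by log2 2.94 (difference -2.94, SE 0.49, adjusted p = 2.79e-07), a call that leaving out any 1 library kept. In α-cells the Birc3 change differed from that of β-cells by log2 0.82 (SE 0.48, adjusted p = 0.39) and in macrophages by log2 -0.63 (adjusted p = 0.838). The rise of Bcl2l1 in β-cells was not matched in value by macrophages (difference log2 -1.04, SE 0.45, adjusted p = 0.225) or endothelial cells (-1.14, SE 0.55, adjusted p = 0.251), although neither difference passed the test, and in α-cells it differed by log2 0.08 (SE 0.25). The 4 called differences all involve β-cells as the reference, so they share the β-cell values.

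**Figure D3:**
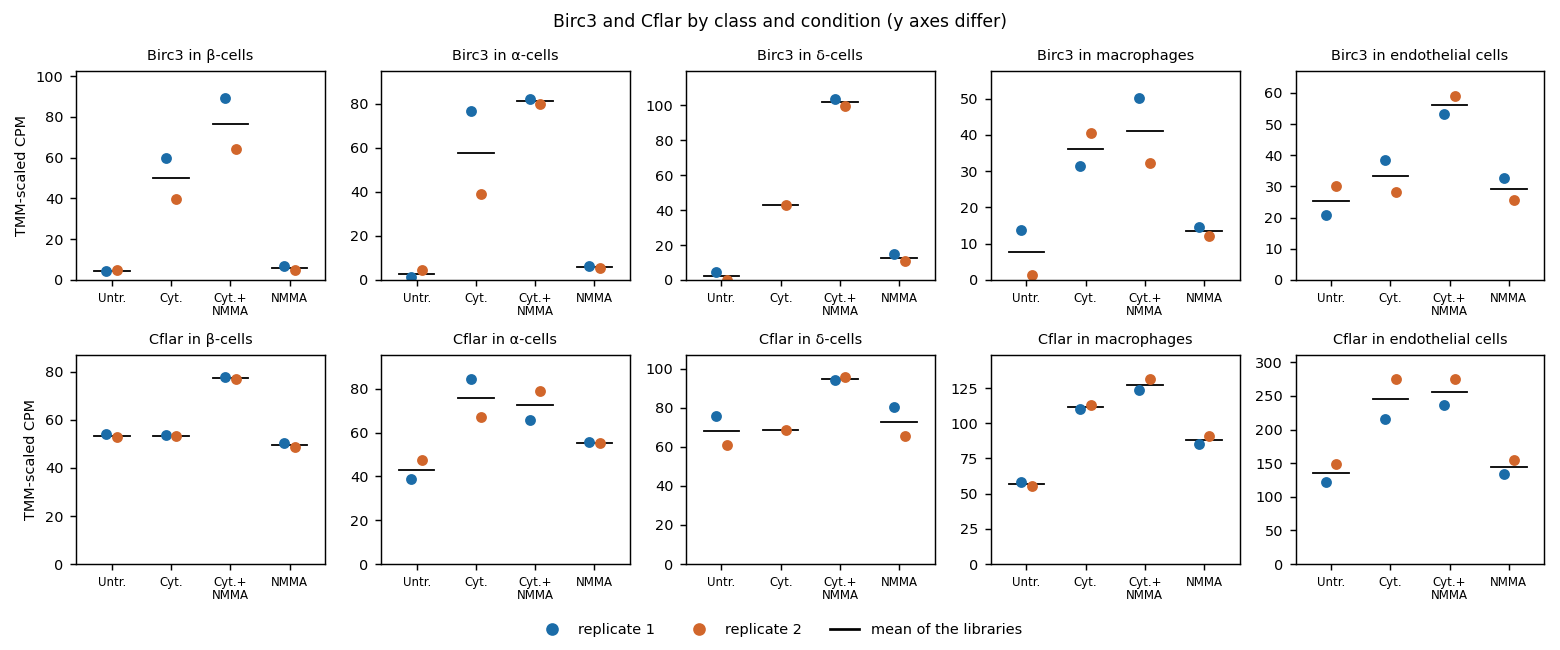
TMM-scaled CPM (y axes, each from 0 and on its own scale) of Birc3 (top) and Cflar (bottom) in 5 cell classes by condition (x axis); points are libraries and lines the mean of a condition, with 1 library for δ-cells under cytokines. Birc3 under cytokines lies at 39.1 CPM or more in β-, α- and δ-cells against at most 4.86 CPM untreated, and Cflar under cytokines overlaps untreated in β-cells but lies above it in α-cells, macrophages and endothelial cells.

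Untreated islets already differed in these genes by class, shown on a scale common to all classes (mean CPM ± SD over 2 libraries) and tested within libraries. Bcl2 was lowest in β-cells (0.942 ± 0.221), followed by macrophages (11.1 ± 4.84), δ-cells (16.8 ± 5.85), α-cells (18.7 ± 2.52) and endothelial cells (23.8 ± 11.3). Each of the other 4 classes exceeded β-cells, by log2 3.28 to 4.50, with adjusted p between 1.21e-13 and 0.000855, and these 4 were not called different from each other, except endothelial cells from macrophages with scaling by total UMIs (log2 1.61). Set against β-cells, α-cells differed in 30.5% of all genes, δ-cells in 22.1%, macrophages in 47.4% and endothelial cells in 54.3%, while α- and δ-cells differed in 13.5%. Macrophages differed in 48.3% from α-cells and 46.7% from δ-cells, and endothelial cells in 50.7% from α-cells, 46.9% from δ-cells and 44.4% from macrophages. Mcl1 split the classes into a low endocrine group of β- (62.1 ± 9.03), α- (72.6 ± 5.12) and δ-cells (80.7 ± 10.4) and a high group of macrophages (270 ± 27.1) and endothelial cells (306 ± 5.57). Each of the 2 high classes exceeded each of the 3 endocrine classes by log2 1.72 to 2.15, and neither the endocrine neighbours nor the 2 high classes differed beyond the test, although with scaling by total UMIs α- and δ-cells exceeded β-cells and endothelial cells exceeded macrophages (log2 0.78, 1.05 and 0.74).

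Xiap was highest in endothelial cells (99.4 ± 26.3) and lay between 33.6 and 47.7 CPM in the other 4, none of which was called different from its neighbour while with scaling by total UMIs α-cells, δ-cells and macrophages exceeded β-cells (log2 0.66, 0.86 and 0.77), and the endothelial excess ran from log2 1.08 over macrophages to 1.41 over β-cells. Birc3 was also highest in endothelial cells (19.5 ± 5.16), above macrophages (8.05 ± 9.20), β-cells (6.35 ± 0.208), α-cells (2.94 ± 2.09) and δ-cells (2.10 ± 2.97). The endothelial level of Birc3 exceeded that of each other class (log2 1.48 to 2.74, adjusted p = 2.3e-05 to 0.0414), the other 4 classes were not called different from each other, and without the low-UMI endothelial cells the excess over macrophages was lost (log2 1.47, adjusted p = 0.0651). Cflar ran from α-cells (43.8 ± 5.96) through δ-cells (58.8 ± 9.35), macrophages (60.7 ± 0.662) and β-cells (74.9 ± 1.74) to endothelial cells (104 ± 15.9), with α-cells below β-cells (log2 -0.78, SE 0.16, adjusted p = 7.93e-05), a difference of -0.21 and not called with scaling by total UMIs. Endothelial cells exceeded α-cells (log2 1.13), δ-cells (0.70) and macrophages (0.73) in Cflar, and no other pair of classes was called, except that with scaling by total UMIs endothelial cells exceeded β-cells (log2 1.34, against 0.32).

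Bcl2l1 was highest in macrophages (44.2 ± 0.774) and α-cells (35.7 ± 0.430) and lower in β-cells (21.3 ± 2.09), δ-cells (17.0 ± 2.07) and endothelial cells (16.4 ± 11.01), with α-cells above β-cells (log2 0.73, SE 0.19, adjusted p = 0.00199) and macrophages above β-cells (log2 0.86, adjusted p = 0.017). Macrophages and α-cells were not called different in Bcl2l1, nor were β-cells, δ-cells and endothelial cells. Bcl2l2 had the reverse leader, β-cells (38.7 ± 3.50), with α-cells at 27.5 ± 0.581 and the other 3 classes at 18.1 to 20.4 CPM. The δ-cell, macrophage and endothelial levels of Bcl2l2 were below that of β-cells by log2 -1.11, -1.11 and -1.12, and by -0.44, -0.62 and -0.09, none called, with scaling by total UMIs. The α-cell level was called lower too (log2 -0.50, adjusted p = 0.0409), but it was log2 0.07 (not called) with scaling by total UMIs, which moved the median of all genes in this comparison by 0.53. Birc2 was highest in δ-cells (48.0 ± 2.07) and lowest in macrophages (20.9 ± 3.37), with macrophages below β-cells (log2 -1.15, adjusted p = 0.00409, and -0.66, not called, with scaling by total UMIs). That scaling gained 2 calls for Birc2, δ-cells above β-cells (log2 0.87, against 0.21) and macrophages below α-cells (log2 -1.05, against -0.84). The endothelial level of Birc2 (28.0 ± 5.31) was called below that of β-cells (log2 -0.70, adjusted p = 0.0172), and with scaling by total UMIs, which moved the median of all genes by 0.74, it was log2 0.33 higher and not called.

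**Figure D4:**
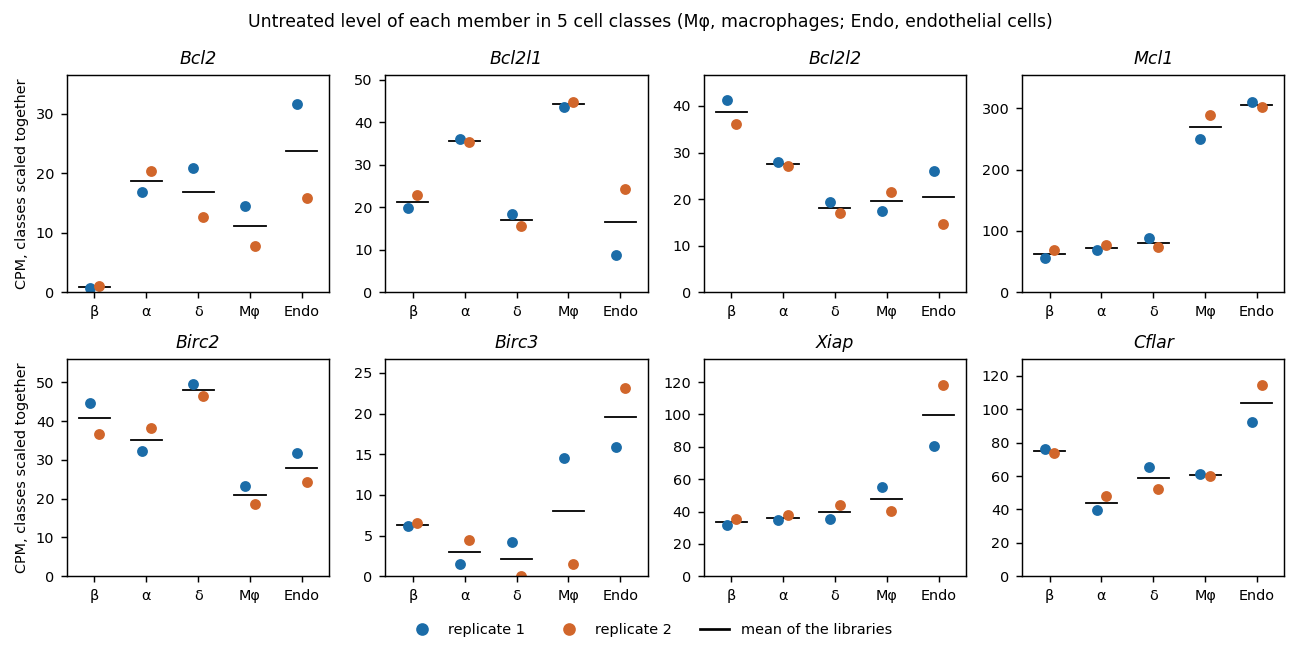
CPM on a scale common to all classes (y axes, each from 0) of the 8 genes in untreated β-, α- and δ-cells, macrophages (Mφ) and endothelial cells (Endo) on the x axis; points are the 2 libraries and lines their means. Bcl2 is near 1 CPM in β-cells, and Mcl1 is at 250 CPM or more in macrophages and endothelial cells against at most 88.1 CPM in the endocrine classes.

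Over the 39 class sums, the genes whose levels ran most like those of the 8 were sought among 4347 genes tested in all 5 classes, by Pearson's r of log levels. Birc3 ran most like the adhesion molecule gene Icam1 (r = 0.86) and Nos2 (0.84). For Cflar the nearest were Pttg1ip (0.89), Ly6a (0.88) and Elf1 (0.87), for Mcl1 Rbms1 (0.97), Tpm3 (0.95) and Myl12a (0.95), for Xiap Ptpn12 (0.89), Bmpr2 (0.88) and Crk (0.87), and for Bcl2l1 Arrdc4 (0.82), Rala (0.76) and Vwa5a (0.76). The sums share libraries and classes, so these values describe the table and carry no test. Bcl2, Bcl2l2 and Birc2 were not among the genes tested in all classes.

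Genes that act beside the 8 moved in both directions in β-cells under cytokines, where 23.8% of all genes tested were called higher and 22.4% lower. Of 14 other survival genes, 5 passed the filter and 3 rose, among them Tnfaip3, the NF-κB feedback inhibitor A20, from 1.31 ± 0.120 to 20.05 ± 4.59 CPM (SD, 2 libraries each; log2 3.95, adjusted p = 6.91e-06), and Gadd45b from 9.39 ± 5.14 to 137 ± 16.02 CPM (log2 3.89, adjusted p = 0.000255). Birc6, a giant IAP family member, fell from 73.4 ± 4.68 to 50.9 ± 5.13 CPM (log2 -0.53, adjusted p = 0.00913). Traf2, which recruits cIAP1 and cIAP2 to TNF receptors, rose from 3.98 to 12.9 CPM (log2 1.69, adjusted p = 0.000292). Of 11 BH3-only and effector genes, which the Bcl-2 relatives oppose, 9 were tested, 6 rose and 2 fell. Bid rose from 1.78 to 9.89 CPM (log2 2.47, adjusted p = 9.88e-05) and Bbc3, encoding Puma, from 4.60 to 11.4 CPM (log2 1.29, adjusted p = 0.0009), while Bik fell from 2.36 to 0.832 CPM (log2 -1.48, adjusted p = 0.00431). Of 4 antagonists of IAPs 3 were tested and 2 rose, Xaf1 (log2 3.88, from 5.58 to 80.6 CPM) and Htra2 (log2 0.74), and Diablo was called higher with a replicate block (adjusted p = 0.0114).

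Upstream of Cflar and the caspases, 9 of 12 death receptor and caspase pathway genes rose in β-cells under cytokines and 2 fell, where 23.8% of all genes were called higher and 22.4% lower. Fas was at 0.188 CPM untreated and 20.1 CPM under cytokines (log2 6.68, adjusted p = 3.47e-06). Of 11 NF-κB subunit and inhibitor genes 9 rose and none fell, led by Nfkb2 (log2 2.88) and Nfkbia (log2 2.80, from 41.3 to 288 CPM). Of the genes known to respond to the treatment, Irf1 was at 20.1 CPM untreated and 187 CPM under cytokines (log2 3.21) and Nos2 at 0.0139 CPM untreated and 178 CPM under cytokines. Irf1 was called higher in all 5 classes, by log2 3.21 in β-cells to 4.45 in endothelial cells, while the stress genes Hmox1 and Ddit3 were called higher in β-cells (log2 3.12 and 2.62) and α-cells (3.90 and 3.0) and in none of the other 3 classes, although Ddit3 passed in δ-cells with the replicate as a block (adjusted p = 0.0279). Nos2 under cytokines stood at 83.2 CPM in α-cells, 176 CPM in δ-cells and 127 CPM in endothelial cells, where untreated libraries were at 0, and at 16.7 CPM in macrophages against 2.09 CPM untreated. The Nos2 change was not called in α-cells (adjusted p = 0.121) or macrophages (adjusted p = 0.0503, or 0.0291 with the block). With NMMA added to the cytokines, 4 of the 5 other survival genes, 4 of the 9 BH3-only and effector genes, 1 of the 3 IAP antagonists, 8 of the 12 death receptor genes and 9 of the 11 NF-κB genes were higher than untreated and none lower, where 12.9% of all genes were called higher and 9.74% lower. A replicate block gave 4, 5, 2, 9 and 10 higher in these lists, in the same order, where it called 2829 of 12771 genes higher. Cytokines alone against cytokines with NMMA gave 2 lower of the survival genes, 1 higher and 3 lower of the BH3-only and effector genes, 1 higher and 4 lower of the death receptor genes and 1 each way of the NF-κB genes, where 8.98% of all genes were called higher and 10.4% lower. With the replicate as a block the higher counts of the last 3 lists were 3 each and 1 of the 3 IAP antagonists was higher. Over all 12771 genes tested, those called higher went from 1147 to 2592 with that block.

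In α-cells under cytokines, where 13.8% of all genes were called higher and 9.61% lower, 2 of 5 other survival genes tested rose (Tnfaip3, log2 5.08, from 0.992 to 36.5 CPM, and Gadd45b, log2 4.48), 2 of 8 BH3-only and effector genes rose and 2 fell, 1 of 3 IAP antagonists rose (Xaf1, log2 3.29), 5 of 10 death receptor genes rose and 8 of 10 NF-κB genes rose. A replicate block gave 3 of the 5 other survival genes higher, where it called 1753 of all 9714 genes higher. Bcl2l11, encoding Bim, which Bcl-2, Bcl-xL and Mcl-1 all bind, was at 19.96 CPM untreated and 49.3 CPM under cytokines in α-cells (log2 1.24, adjusted p = 0.0125), and Bad fell from 38.2 to 19.4 CPM (log2 -0.96, adjusted p = 0.0153). In δ-cells, with 1 cytokine library and the spread taken from the other conditions, 2 of 5 other survival genes rose against 4.57% of all genes (Tnfaip3, log2 5.45, and Gadd45b, 2.85), as did Xaf1 (4.21, of 3 IAP antagonists), 1 of 10 death receptor genes and Nfkbia (1.89, of 8 NF-κB genes). Under a replicate block Tnfrsf1a (adjusted p = 0.0468) and Bcl3 (adjusted p = 0.0419) were called higher in δ-cells too. In macrophages, where 3.82% of all genes rose, 1 of 8 NF-κB genes did, the inhibitor gene Nfkbib (40.7 to 91.9 CPM, log2 1.16, adjusted p = 0.0375), and none of the other lists had a call without a replicate term, where Irf1 rose from 25.2 to 475 CPM. With the replicate as a block Traf1 (adjusted p = 0.0460) and Xaf1 (adjusted p = 0.0204) were called higher in macrophages, among 314 of 5156 genes. In endothelial cells, where 4.45% of all genes rose and 1.55% fell, Bok, of 8 BH3-only and effector genes, fell from 113 to 21.9 CPM (log2 -2.36, adjusted p = 0.00999), Xaf1 rose from 24.8 to 275 CPM (log2 3.43), and 2 of 11 death receptor genes rose, among them Tnfrsf1a, encoding TNF receptor 1, from 209 to 400 CPM (log2 0.94, adjusted p = 0.0289). Under a replicate block, 4 of the 11 death receptor genes, 2 of the 8 BH3-only and effector genes, 2 of the 4 IAP antagonists, 1 of the 4 other survival genes (Gadd45b) and 1 of the 10 NF-κB genes (Nfkbia) were called higher in endothelial cells. Of all 7551 genes tested there, 531 were called higher with that block.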

How the data were processed

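The authors sequenced 10x Genomics 3′ libraries and deposited a table of raw UMI counts for every library (genes by barcodes), made with Cell Ranger (versions 6.0.0 and 3.0.0 in the file headers) on mm10. Barcodes with at least 200 genes, at most 5500 (replicate 1) or 6500 (replicate 2) genes and at most 10% mitochondrial counts were kept. Cells were clustered with scanpy 1.11.5 (2000 variable genes, 30 components, resolution 1, 22 clusters) and clusters named from listed markers. Scrublet marked 128 doublets (1.18%), which were kept. In all, 2095 barcodes lay in unnamed low-UMI clusters. Counts were summed per library and class (at least 10 cells) and tested in all 4 conditions at once with edgeR 4.0.16 (TMM, filterByExpr, quasi-likelihood). Alternatives were a replicate block, each library left out, total-UMI scaling, no filter, DESeq2 1.42.0, doublets removed and resolution 2. Same-numbered libraries share a pool of islets and deviated together (correlations of 0.603 to 0.702 in β-cells over 6 pairs of conditions, 0.227 to 0.460 in the other classes). They also share a gene list, with 31053 genes in replicate 1 and 32285 in replicate 2, so pool and gene list cannot be told apart here. Of each further gene list, the 4 genes with the smallest adjusted p in β-cells, cytokines against untreated, were to be named (2 in other classes), with Nos2, Irf1, Hmox1 and Ddit3 in every class and, for each of the 8 genes, the 3 with the highest r over class sums. Some genes these rules select are not reported here. The genes, lists and tests were chosen with earlier results of these data known. Intervals on shares cover counting error alone.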

Additional observations from a re-analysis of the deposited data

Results flagged for a closer look

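The cytokine responses that differed between classes, by a test of the difference itself, are given for a closer look. The Cflar change was larger than in β-cells by log2 0.86 in α-cells, 1.20 in macrophages and 0.99 in endothelial cells. Each of these 3 calls was lost on leaving out 1 of several libraries, and those in α-cells and macrophages also with scaling by total UMIs (log2 0.52 and 1.11, adjusted p = 0.214 and 0.0531). The Birc3 change in endothelial cells differed from that in β-cells by log2 -2.94. The summed β-cell markers moved with cytokines in α-cells and macrophages, as given above, and their part in these differences was not tested.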

How the results depend on the processing

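The counts of the 8 genes called that moved by over 1.5 times are given here, and smaller moves (in β-cells Birc2, Birc3, Bcl2l2 and Xiap, in α-cells Mcl1 and Cflar, in macrophages Mcl1) stand with each gene above. With the replicate as a block, the paired analysis, macrophages under cytokines went from 1 to 3 and endothelial cells from 0 to 1, and for the 8 genes it changed no call besides those given with the block above. Over all genes tested, the block moved the calls under cytokines from 238 to 457 in macrophages and from 453 to 775 in endothelial cells. Scaling by total UMIs gave 3 in place of 5 for cytokines in α-cells (2 higher and 1 lower), 2 in place of 0 against cytokines with NMMA, 2 in place of 4 for cytokines with NMMA, 0 in place of 1 for cytokines in macrophages and for cytokines with NMMA in endothelial cells, 0 in place of 1 for the difference of the cytokine change from β-cells in α-cells and in macrophages, 4 in place of 2 for untreated δ- against β-cells and 2 in place of 1 for untreated macrophages against α-cells. It turned the sign of the untreated level of Bcl2l2 in α- against β-cells (0.0678) and of Birc2 in endothelial against β-cells (0.327), neither called. DESeq2 gave 1 in place of 2 for cytokines against cytokines with NMMA in β-cells, 3 in place of 5 and 1 in place of 4 for both α-cell comparisons with untreated, 1 in place of 2 for cytokines with NMMA in δ-cells, 0 in place of 1 and 1 in place of 3 in macrophages, 0 in place of 1 in endothelial cells with NMMA and 0 in place of 1 for the α-cell difference. Without the filter, macrophages under cytokines gave 2 and their difference from β-cells 0. Endothelial cells under cytokines gave 1 with doublets removed, at resolution 2 and without the low-UMI cluster, a setting chosen after seeing the data. The cause was not tested. Where leaving out a library left 1 in a condition, that library was assumed to vary like the others. Leaving out each library gave 3 to 5, 0 to 2 and 2 to 6 in β-cells for cytokines against untreated, against cytokines with NMMA and for cytokines with NMMA against untreated, 3 to 5, 0 to 1 and 1 to 5 in α-cells, 1 to 2 in δ-cells with NMMA, 0 to 2 and 0 to 3 in macrophages under cytokines without and with NMMA, 0 to 1 in endothelial cells with NMMA, and 0 to 1, 0 to 1 and 1 to 2 for the differences from β-cells in α-cells, macrophages and endothelial cells. Precision is limited by 2 libraries a condition, by class sums that are smaller outside β-cells and by the 1 cytokine library of δ-cells.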
